A study of Homo sapiens with 34 samples.

Results

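The kinases and ubiquitin ligase subunits that set the stability of clock proteins were followed in *Bmal1*:*luc* U2OS cells, with 6 genes chosen by name: *CSNK1D*, *CSNK1E*, *CSNK2A1*, *GSK3B*, *BTRC* and *FBXW11*. Every locus of the deposited annotation whose list of gene names held one of these was taken, which gave 6 loci of 28690, 1 for each gene. All 6 were among the 13979 loci called expressed here, with a mean of at least 1 FPKM (fragments counted per transcript length and library size) over the 24 RNA-seq libraries. U2OS is a human osteosarcoma line, and these cells stably expressed luciferase under the *Bmal1* promoter. They were synchronized with dexamethasone and grown in 5 mM 6AN (6-aminonicotinamide), an inhibitor of the pentose phosphate pathway (PPP), or in DMSO as control. RNA depleted of ribosomal RNA was sequenced every 4 hr at 12 time points, labelled CT00 to CT44, with 1 library for each time point and condition. Hours are given as in these labels, and the figures of the study number the same time points differently. Binding of BMAL1 and CLOCK, the histone marks H3K4me3 and H3K9ac, and the input were measured by ChIP-seq after 24 hr of the same treatments, in 10 libraries, 1 for each antibody or input and condition.

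In the mammalian clock, BMAL1 and CLOCK drive *PER* and *CRY* genes, whose proteins return to the nucleus and repress them. How long PER and CRY persist is set by phosphorylation and ubiquitination. Casein kinase 1 δ and ε (*CSNK1D*, *CSNK1E*) bind and phosphorylate PER proteins, and the F-box proteins β-TrCP1 (*BTRC*) and β-TrCP2 (*FBXW11*) recognize phosphorylated PER and hand it to an SCF ubiquitin ligase. Casein kinase 2 (*CSNK2A1* encodes its catalytic α subunit) and GSK3β (*GSK3B*) phosphorylate several clock proteins, BMAL1 among them. Changes in casein kinase 1 are known to alter the period of the clock.

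No replicate libraries were in the tables, so the time points stand as the units of each test, and p-values measure the spread between time points and not that between experiments. The control and 6AN tables were each normalized over their own 12 libraries, so that levels between the tables were described and not tested. Read totals were not given with the FPKM, and depth relative to the median of its table, read from the steps between low values, ran from 0.581 (CT04) to 1.31 (CT32) in control and from 0.696 (CT20) to 1.55 (CT32) in 6AN. Of 7 osteoblast lineage markers 5 passed the expression filter, while *COL1A2* and *SP7* were near 0. The summed level of this list was 137 to 219 FPKM in control and 53.2 to 128 FPKM in 6AN. In control most of it came from *COL1A1*, whose mean was 128 FPKM there and 33.9 FPKM in 6AN. The lowest *COL1A1* value in 6AN was 13.3 FPKM (CT44), so the sum in 6AN was not mostly *COL1A1* in every library. The list did not move as one. *ALPL* was also lower in 6AN at 12 of 12 time points, with means of 6.41 and 3.73 FPKM, while *SPP1* was higher at 12 of 12, with 2.07 and 4.00 FPKM, and the means were 14.0 and 13.9 FPKM for *RUNX2* and 23.1 and 22.8 FPKM for *BGLAP*. None of 5 markers of other cell types passed the filter, and their summed level stayed between 0.986 and 2.26 FPKM in every library.

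The members differed more than 10-fold in level, and the genes for casein kinase 1 δ and ε stood at the top. *CSNK1E* had the highest level in both conditions, followed by *CSNK1D*, *CSNK2A1*, *FBXW11*, *GSK3B* and *BTRC*. Here and below, the *CSNK1E* value is that of a locus that also held *LOC400927* and a readthrough transcript of the 2 genes. In control, mean levels were 90.4 ± 4.10 FPKM (SD, n = 12 time points) for *CSNK1E* and 6.86 ± 0.614 FPKM for *BTRC*. Neighbours in this order were compared within each library by an exact sign-flip permutation test over the 12 time points, two-sided, whose smallest possible p is 0.000488. All 10 neighbour pairs of the 2 conditions differed, with adjusted exact permutation p from 0.000543 to 0.00391 over the 10 comparisons. The order was taken from the same values, so these p-values only describe how steady it was over time points. They give no separate support for the order. The closest pair was *FBXW11* and *GSK3B* in control, where *FBXW11* was 1.10-fold higher and above *GSK3B* at 10 of 12 time points. In 6AN the same pair stood 1.29-fold apart, with *FBXW11* higher at 12 of 12 time points.

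The genes for casein kinase 1 δ and ε were higher in 6AN at every time point. *CSNK1E* had values from 82.9 to 94.2 FPKM in control, with a median of 92.6 FPKM. In 6AN they were 102 to 125 FPKM, with a median of 116 FPKM. Its lowest 6AN library (CT28) was thus above its highest control library (CT36), and the groups did not overlap. The mean log2 ratio of 6AN to control, on the log2(FPKM + 1) scale, was 0.34 ± 0.13 (SD, n = 12 time points). *CSNK1D* ranged from 69.9 to 77.9 FPKM in control, with a median of 74.4 FPKM. The 6AN libraries held 79.5 to 88.7 FPKM, with a median of 83.9 FPKM. Here too every 6AN library was above every control library, although the gap was narrow, since the lowest 6AN value and the highest control value both fell at CT24. The mean log2 ratio of *CSNK1D* was 0.18 ± 0.08 (SD, n = 12 time points).

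**Figure D1:**
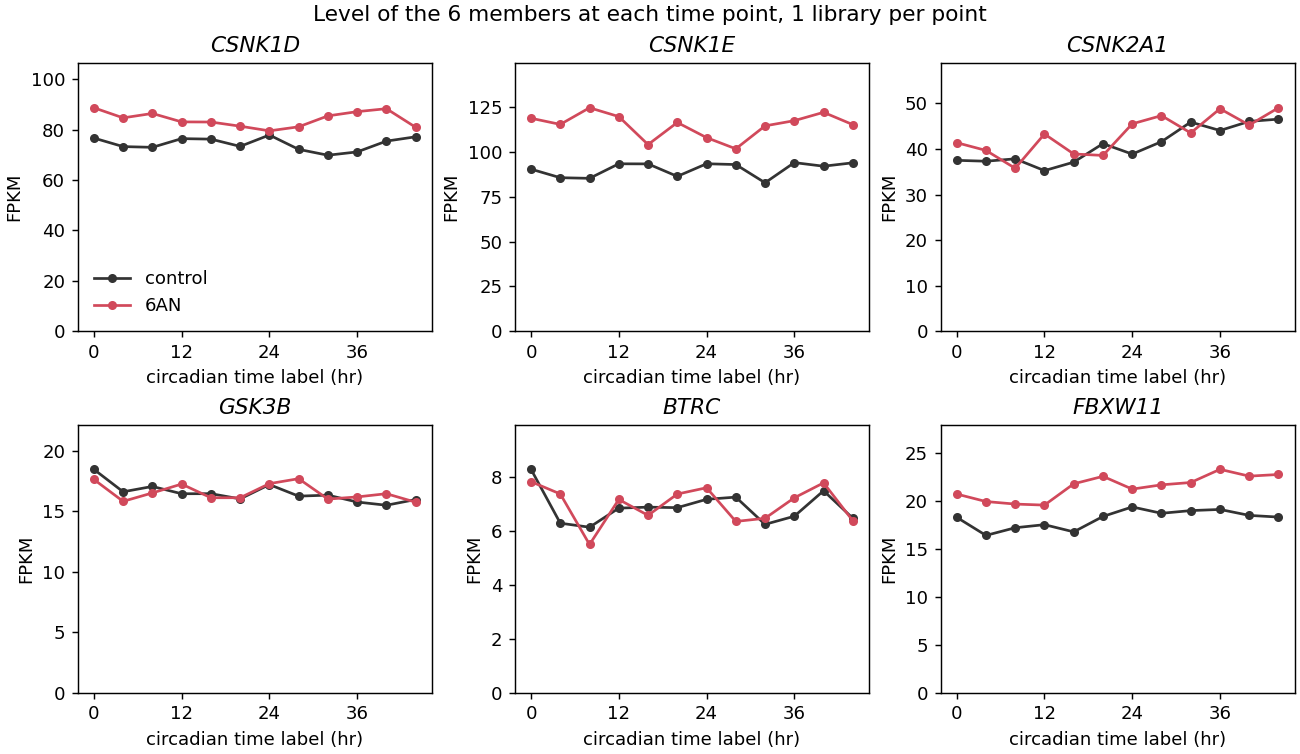
FPKM of each of the 6 members (vertical axes, starting at 0) against the circadian time label in hr (horizontal axes), with control in black and 6AN in red and 1 library per point. The 6AN line lies above the control line at all 12 time points for *CSNK1D*, *CSNK1E* and *FBXW11*, and the lines cross for *CSNK2A1*, *GSK3B* and *BTRC*.

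Of the 2 β-TrCP genes, *FBXW11* was higher in 6AN at every time point and *BTRC* was not. *FBXW11* had 16.4 to 19.4 FPKM in control, with a median of 18.3 FPKM. In 6AN it had 19.5 to 23.3 FPKM, with a median of 21.7 FPKM. The groups did not overlap, and the mean log2 ratio was 0.23 ± 0.07 (SD, n = 12 time points). *BTRC*, the lowest of the members, had 6.13 to 8.27 FPKM in control and 5.49 to 7.81 FPKM in 6AN, with medians of 6.84 and 7.19 FPKM. Both its lowest libraries were at CT08 and both its highest at CT00, the groups overlapped over most of their range, and the mean log2 ratio was 0.02 ± 0.11 (SD, n = 12 time points), with 6AN higher at 7 time points and lower at 5.

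Neither of the other kinases was shifted at all time points. *CSNK2A1* had 35.3 to 46.6 FPKM in control, with a median of 40.03 FPKM. In 6AN it had 35.8 to 49.1 FPKM, with a median of 43.4 FPKM. The groups overlapped, with a mean log2 ratio of 0.08 ± 0.13 (SD, n = 12 time points) and 6AN higher at 8 time points. *GSK3B* had 15.5 to 18.5 FPKM in control and 15.7 to 17.7 FPKM in 6AN, with medians of 16.4 and 16.3 FPKM. Its mean log2 ratio was 0.01 ± 0.06 (SD, n = 12 time points), with 6AN higher at 6 time points and lower at 6.

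Set against all expressed loci, 3 of 6 members were higher in 6AN at all 12 time points, where 13.0% of loci were, and 0 of 6 were lower at all 12, where 20.4% were. For the same 3 members every 6AN value was above every control value, which held for 5.89% of loci. The median of the mean log2 ratio was 0.13 over the members and -0.04 over all expressed loci. In size the shifts were moderate, since 13.7% of loci had a larger mean log2 ratio than *CSNK1E*, 20.7% than *FBXW11* and 25.5% than *CSNK1D*. In these bulk samples, a change in the mix of cells and a change in RNA per cell cannot be told apart. The part of the lower *COL1A1* level in these ratios was not tested.

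**Figure D2:**
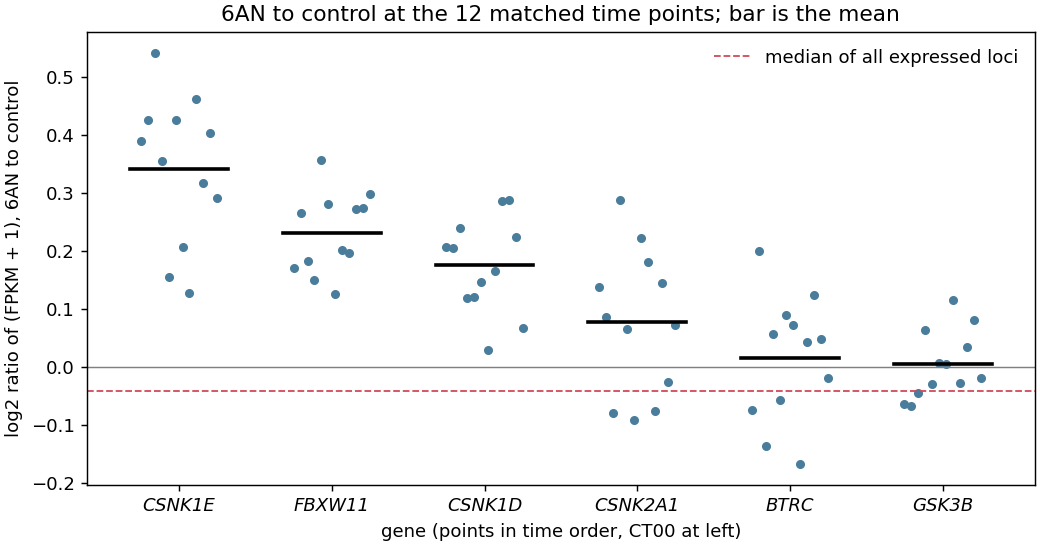
Log2 ratio of (FPKM + 1) in 6AN to that in control (vertical axis) for each member (horizontal axis), with 1 point per time point in time order, the mean as a black bar and the median of all expressed loci as a dashed red line. All 12 points lie above 0 for *CSNK1E*, *FBXW11* and *CSNK1D*, and points lie on both sides of 0 for *CSNK2A1*, *BTRC* and *GSK3B*.

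Related genes with overlapping roles were then compared by their ratio within a library, in which the scaling of a library or table cancels. All 4 ratios that were compared were lower in 6AN, by an exact sign-flip permutation test over the 12 matched time points, two-sided, adjusted over the 4 ratios. Which gene stands first in a ratio was a choice, so the shared direction has no meaning of its own. Many single loci were shifted at all 12 time points, 13.0% higher and 20.4% lower in 6AN. How often ratios of other loci would pass was not tested. The ratio of *CSNK1D* to *CSNK1E* was 0.756 to 0.855 in control libraries and 0.692 to 0.796 in 6AN libraries. It was lower in 6AN at 11 of 12 time points, with a difference of -0.17 ± 0.11 on the log2 scale (SD, n = 12; adjusted exact permutation p = 0.00195), and the ranges overlapped. For β-TrCP, the ratio of *BTRC* to *FBXW11* was 0.329 to 0.453 in control and 0.279 to 0.378 in 6AN. The difference was -0.23 ± 0.13 (SD, n = 12; adjusted exact permutation p = 0.000977), lower in 6AN at 12 of 12 time points. *FBXW11* was thus the more abundant β-TrCP transcript per length in both conditions, and by more in 6AN.

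A much larger shift was found between the 2 catalytic subunits of casein kinase 2. *CSNK2A2*, which encodes the α′ subunit, had 32.7 to 41.3 FPKM in control and 55.1 to 73.3 FPKM in 6AN, without overlap. The ratio of *CSNK2A1* to *CSNK2A2* went from a geometric mean of 1.12 in control, with values of 0.930 to 1.33, to 0.674 in 6AN, with values of 0.613 to 0.729. *CSNK2A1* was therefore above *CSNK2A2* on average in control and below it in every 6AN library. The difference was -0.73 ± 0.16 on the log2 scale (SD, n = 12; adjusted exact permutation p = 0.000977), lower in 6AN at 12 of 12 time points. For glycogen synthase kinase 3, the ratio of *GSK3B* to *GSK3A*, the α form, was 0.312 to 0.380 in control and 0.275 to 0.362 in 6AN. It differed by -0.19 ± 0.13 (SD, n = 12; adjusted exact permutation p = 0.0013), lower in 6AN at 11 of 12 time points. *CSNK2A1* has a near-identical copy, *CSNK2A3*, on chromosome 11, so that reads may be shared between them and its level is uncertain to that extent.

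**Figure D3:**
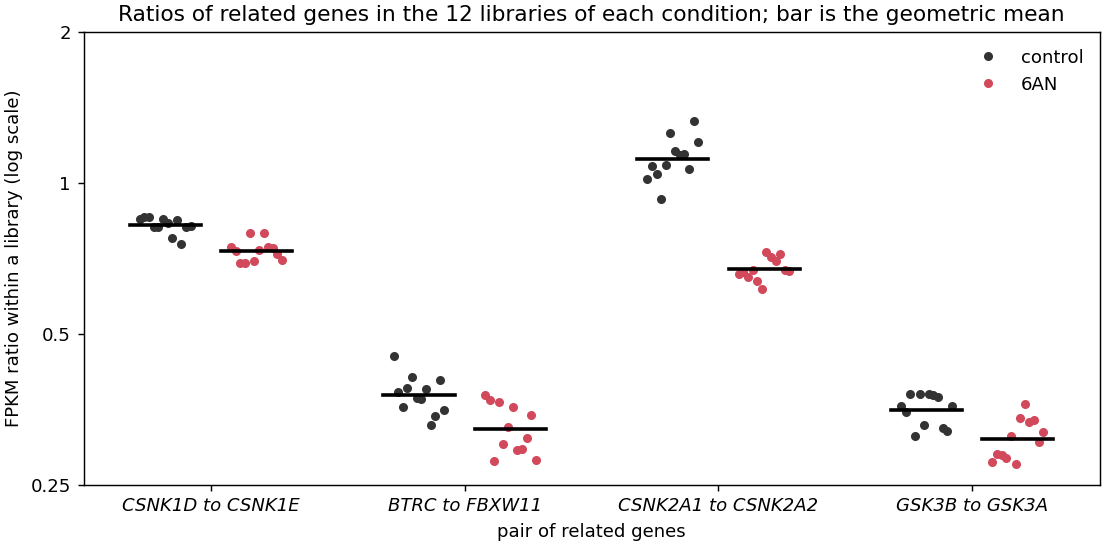
FPKM ratio of 2 related genes within a library (vertical axis, log scale) for the 4 pairs (horizontal axis), with control in black, 6AN in red, 1 point per library and the geometric mean as a bar. The ratio of *CSNK2A1* to *CSNK2A2* separates the conditions completely, from 0.930 to 1.33 in control and from 0.613 to 0.729 in 6AN, and the other 3 ratios are lower in 6AN with overlap.

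Rhythms were tested within each condition with an umbrella rank test built after RAIN, which folds the time points on a 24 hr cycle and asks whether ranks rise to a peak and fall again, with p from all distinct orders and calls at p of at most 0.01. No member was called rhythmic in either condition. In control 0 of 6 members were called, where 0.823% of loci were, and in 6AN 0 of 6, where 0.823% were. The smallest p among the members was 0.0817 in control, for both *CSNK1D* and *BTRC*, and 0.184 in 6AN, for *BTRC*, by the same exact test of all orders, so that 0 of 6 members had an unadjusted p under 0.05 in either condition. Leaving out 1 time point brought the exact p of *BTRC* in control to 0.0225 without CT44 and to 0.0455 without CT40. It was also 0.0455 for *CSNK1D* in control without CT12 or CT20 and for *BTRC* in 6AN without CT44, by the same exact test. Harmonic regression at 24 hr in limma, the other tool that was run, also called 0 of 6 members in each condition at p of at most 0.01, where 1.05% of loci were called in control and 1.19% in 6AN. Across all loci, 705 in control and 586 in 6AN had an umbrella p of at most 0.05, and 0 passed an adjusted p of 0.05 in either condition, by the umbrella test or by harmonic regression. For comparison, *ARNTL*, which encodes BMAL1, had an exact umbrella p of 0.000224 in control and 0.0144 in 6AN. *NR1D1*, which encodes its repressor REV-ERBα, had an exact umbrella p of 0.00667 in control and 0.0172 in 6AN. Of these references, 2 of 2 were thus called in control and 0 of 2 in 6AN. The study, with RAIN, reported both as rhythmic in both conditions. Their fitted periods in 6AN were 25.8 hr for *ARNTL* and 28.1 hr for *NR1D1*, while the test folds on 24 hr. A missing call, above all in 6AN, therefore does not show that a member lacks a rhythm.

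The swing of the members over a day was small. A 24 hr cosine with a linear trend was fitted to log2(FPKM + 1), so fitted ratios of peak to trough are those of FPKM + 1. Amplitudes were 0.03 to 0.08 on this log2 scale in control and 0.02 to 0.09 in 6AN, against 0.41 and 0.72 for *ARNTL*. The widest swing in both conditions was that of *BTRC*, with a fitted ratio of peak to trough of 1.12 in control and 1.13 in 6AN, and a fitted peak at 20.9 hr in control. *CSNK1D* in control was the member best described by a 24 hr cosine, which held 54.1% of its variance about the trend and peaked at 19.5 hr with a fitted ratio of peak to trough of 1.07. In 6AN the same fit held 19.8% of the variance of *CSNK1D*, and whether this differs from control was not tested. The share in control was the largest among all member fits. Harmonic regression of *CSNK1D* in control, without a trend, gave a limma p of 0.0856 (adjusted p = 0.948). Free period fits were poorly determined. *CSNK1D* in control gave 25.4 ± 3.04 hr (jackknife SE over 12 time points), while *CSNK2A1* and *FBXW11* in control and *CSNK1D*, *CSNK1E*, *CSNK2A1* and *GSK3B* in 6AN ended at an edge of the grid of 16 to 32 hr. The coefficient of variation over time points, taken on FPKM, was 3.49% to 9.87% for the members in control and 3.67% to 10.2% in 6AN, below the medians of 11.5% and 12.9% over all expressed loci in each case. Those loci were not matched to the members by level, so the part that level has in this difference was not tested.

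Slow drift over the time course was seen in 2 of the members. In control, *CSNK2A1* rose by 0.21 ± 0.03 log2 per 24 hr (SE of the limma fit; adjusted p = 0.00411), or 1.30-fold in FPKM + 1 over the 44 hr. It had 35.3 to 41.2 FPKM at the 6 time points up to CT20 and 38.9 to 46.6 FPKM at those from CT24. It also rose in 6AN, by 0.18 ± 0.05 log2 per 24 hr (limma, adjusted p = 0.0192), where the first 6 libraries held 35.8 to 43.3 FPKM and the last 6 held 43.5 to 49.1 FPKM without overlap. *FBXW11* rose in 6AN by 0.11 ± 0.03 log2 per 24 hr (limma, adjusted p = 0.0131). Its slope in control was 0.07 ± 0.03 (limma, adjusted p = 0.209), and whether the slopes differ between the conditions was not tested. Thus 1 of 6 members rose in control, where 3.13% of loci did, and 2 of 6 in 6AN, where 12.3% did. None fell, where 3.13% of loci fell in control and 13.1% in 6AN, and in control *GSK3B*, with -0.08 ± 0.03 log2 per 24 hr, had an adjusted limma p of 0.1. When the second 24 hr was compared with the first at matched hours, the difference was 0.21 on the log2 scale for *CSNK2A1* in control (limma, adjusted p = 0.0506) and 0.10 for *FBXW11* in 6AN (limma, adjusted p = 0.12), so the sizes were close to those of the slopes. Without CT44, the slope of *CSNK2A1* in 6AN was 0.17 log2 per 24 hr (limma, adjusted p = 0.0594). Over all alternatives, the adjusted limma p ran from 0.00387 to 0.0506 for *CSNK2A1* in control, from 0.00891 to 0.0594 in 6AN, and from 0.0103 to 0.12 for *FBXW11* in 6AN.

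**Figure D4:**
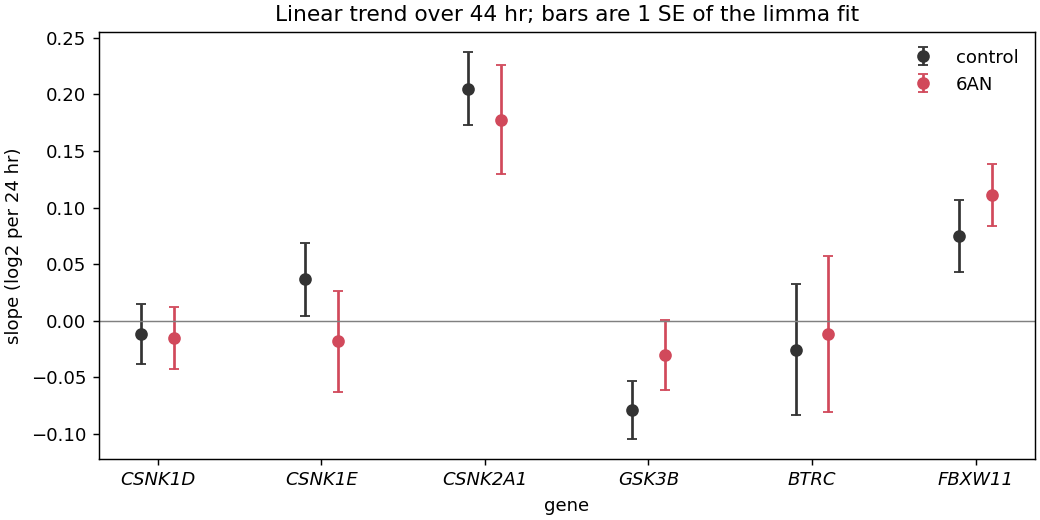
Slope over the 44 hr in log2(FPKM + 1) per 24 hr (vertical axis) for each member (horizontal axis), with control in black, 6AN in red and bars of 1 SE of the limma fit. *CSNK2A1* has the steepest slopes, 0.21 in control and 0.18 in 6AN, and *CSNK1D*, *CSNK1E* and *BTRC* lie near 0 in both.

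The rest of the kinase and ligase machinery was described from 3 lists chosen by function. Among 13 other kinases tested, 2 were higher in 6AN at all 12 time points, beside the 13.0% of all loci, and 4 were lower, beside 20.4%. The higher ones were *CSNK2A2*, with a mean log2 ratio of 0.79 ± 0.12 (SD, n = 12 time points), and *DYRK1A*, a priming kinase of CRY2, with 0.35 ± 0.20. Those lower were *CSNK1G1* (-0.14 ± 0.12) and *CSNK1G2* (-0.40 ± 0.14), which encode casein kinase 1 γ1 and γ2, *PRKAA1* (-0.27 ± 0.09), which encodes the AMPK α1 subunit, and *MAPK9* (-0.36 ± 0.20), which encodes JNK2. The third γ gene, *CSNK1G3*, had a mean log2 ratio of 0.22 ± 0.09, with 6AN higher at 11 of 12 time points, and *CSNK1A1*, the α form, had 0.07 ± 0.09.

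Of 11 other ligase subunits tested, 1 was higher in 6AN at all 12 time points, beside 13.0% of all loci, and 4 were lower, beside 20.4%. *SKP1* and *RBX1*, the adaptor and the RING subunit that work with β-TrCP in the SCF complex, had mean log2 ratios of -0.42 ± 0.13 and -0.40 ± 0.15 (SD, n = 12 time points), while the scaffold *CUL1* had -0.09 ± 0.19. *DDB1*, the adaptor of CUL4 ligases, had -0.32 ± 0.05, and the HECT ligase *HUWE1* had -0.22 ± 0.07. The only one higher was the RING ligase *SIAH2*, with 0.50 ± 0.17. *FBXL21* was listed at 0 in every library. *FBXW11* and its SCF partners *SKP1* and *RBX1* therefore stood on opposite sides of control.

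Among 8 opposing enzymes tested, phosphatases and deubiquitinases, none was higher at all 12 time points, beside 13.0% of all loci. At all 12 time points 4 were lower, beside 20.4% of all loci. The 4 were all phosphatase catalytic subunits, *PPP1CB* (-0.32 ± 0.08), *PPP1CC* (-0.26 ± 0.12), *PPP2CA* (-0.42 ± 0.12) and *PPP5C* (-0.55 ± 0.17; mean log2 ratio ± SD, n = 12 time points). *USP2* was below the expression filter. The medians of the mean log2 ratio were 0.03 for the other kinases, -0.09 for the other ligase subunits and -0.17 for the opposing enzymes, beside 0.13 for the members and -0.04 for all loci.

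None of these listed genes was called rhythmic in either condition. Trends over time passed the limma test at an adjusted p of 0.05 for 2 of 32 in control, where *HUWE1* (-0.10 ± 0.03 log2 per 24 hr) and *PPP1CA* (-0.16 ± 0.04) fell, beside 3.13% of all loci. In 6AN 4 of 32 rose, beside 12.3% of all loci, namely *CSNK1A1* (0.11 ± 0.02), *CSNK2A2* (0.13 ± 0.04), the p53 ligase *MDM2* (0.43 ± 0.05) and the HECT ligase *UBE3A* (0.22 ± 0.04; log2 per 24 hr ± SE). Also in 6AN, 6 of 32 fell, beside 13.1% of all loci, namely *CSNK1G2* (-0.14 ± 0.04), *GSK3A* (-0.17 ± 0.05), *MAPK9* (-0.19 ± 0.06), *DDB1* (-0.07 ± 0.02), *HUWE1* (-0.15 ± 0.03) and *PPP1CA* (-0.22 ± 0.05). Both catalytic genes of casein kinase 2 thus rose in 6AN.

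The loci most alike to each member over time were found by Pearson's r over the 24 libraries, on log2(FPKM + 1) centred within each table, so that points share their library, its depth and any drift. The most alike to *CSNK2A1* were *SCARB2* (r = 0.86), *ADM2* (0.85) and *RSL24D1* (0.85), and to *FBXW11* *TAF1D* (0.84), *HTN3* (0.84) and *SEC11A* (0.84). For these members, both of which rose in 6AN, 9.35% and 9.74% of loci had r above 0.5. *GSK3B* was most alike to *CNOT4* (0.80), *PSMD1* (0.77) and *PIP4K2B* (0.76), *CSNK1E* to *MLLT1* (0.74), *EGFL7* (0.70) and *TRABD* (0.69), *BTRC* to *TOP1* (0.71), *POLR1E* (0.67) and *NDUFB6* (0.67), and *CSNK1D* to *KCTD21* (0.69), *SMPDL3B* (0.65) and *RFX1* (0.65). Between the members, the highest r was that of *CSNK1D* with *CSNK1E* (0.61), followed by *CSNK2A1* with *FBXW11* (0.59), and *BTRC* with *FBXW11* had 0.22.

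BMAL1 and CLOCK binding was examined at the members, since both factors act on genes through nearby sites. The deposited site lists held 147 sites bound by both factors in control and 439 in 6AN, and 1 site in each list was assigned to a member. It was the same interval in both lists, chr17:82287675-82288675 (hg38), intergenic and 14433 bp upstream of the start of *CSNK1D*, a gene that lies at chr17:82242661-82273742. The RefSeq gene nearest to the peak in this interval was *LINC01970*, 1757 bp away. Its signal, in tags in 1000 bp scaled to 10000000 tags per library, was 77.1 in control and 104 in 6AN for BMAL1, from 57.5 and 82.5 tags before scaling. For CLOCK it was 87.0 in control and 268 in 6AN, from 35.5 and 122 tags. Input at the same place was 12.3 and 14.0. The 6AN signal was 1.36-fold that of control for BMAL1 and 3.08-fold for CLOCK, beside medians of 1.16 and 1.81 over the 147 control sites. Over those sites 26.5% had a larger ratio than this one for BMAL1 and 4.08% for CLOCK, and over the 439 sites of 6AN 52.6% and 20% did. H3K4me3 was 14.1 in control and 26.3 in 6AN, from 4.5 and 12 tags, and H3K9ac was 42.6 and 70.2, from 6 and 33 tags. With 1 library for each antibody and condition these differences have no replicate check, and the histone counts are low. Library totals ran from 1409550 tags (H3K9ac in control) to 33273106 tags (input in control).

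**Figure D5:**
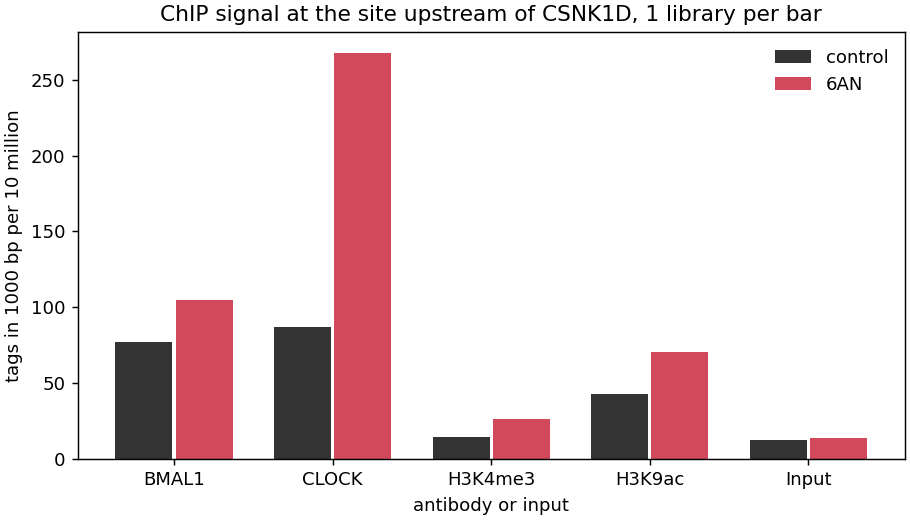
ChIP-seq signal in tags in 1000 bp per 10000000 tags (vertical axis, starting at 0) at the site 14433 bp upstream of *CSNK1D*, for each antibody and the input (horizontal axis), with control in black, 6AN in red and 1 library per bar. The CLOCK bar is 87.0 in control and 268 in 6AN, and the input bars are 12.3 and 14.0.

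The merged list of all BMAL1 and CLOCK peaks, 4001 in number, was then searched within 100 kb of each locus. *CSNK1D* had 2 peaks. The one at chr17:82288061-82288289, inside the shared site, was called in all 4 libraries with a HOMER peak score of 98.8, and that at chr17:82212727-82212951, inside *CCDC57*, was called for BMAL1 in both conditions with a score of 22.6. *CSNK2A1* (chr20:482694-543838) had a peak at chr20:462491-462691 inside *TBC1D20*, called for BMAL1 in control alone with a score of 13.4. *CSNK1E* (chr22:38290691-38398926) had a peak at chr22:38399152-38399352, also called for BMAL1 in control alone, with a score of 20.1. This peak lay 226 bp beyond the upstream end of the locus and of *TPTEP2*, and 80.8 kb from the nearest of the 2 *CSNK1E* promoter windows. RefSeq also lists a protein-coding readthrough gene, *TPTEP2-CSNK1E*, at chr22:38290691-38398915, so its upstream end lay close to the peak. The 80.8 kb is thus the distance to the *CSNK1E* windows and not to the start of this readthrough. The *CSNK1E* locus of the annotation also held *LOC400927* and a readthrough transcript of the 2 genes, so that its FPKM sums over them. *GSK3B* (chr3:119821955-120094417), *BTRC* (chr10:101354033-101557321) and *FBXW11* (chr5:171861552-172006873) had no peak within 100 kb.

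Promoter sequence is shown for members whose transcripts were higher in 6AN or rose over time, taken as the 250 bases before the transcription start in RefSeq (GRCh38.p14), 5′ to 3′ on the strand of the gene. Each window was searched on both strands for the E-box CACGTG, the core of BMAL1 and CLOCK sites, and for its variant CACGTT, the E′-box, and matches are in capitals. The windows are chr22:38318085-38318334 (minus strand) for *CSNK1E*, chr5:172006639-172006888 (minus strand) for *FBXW11* and chr20:543791-544040 (minus strand) for *CSNK2A1*.
CSNK1E: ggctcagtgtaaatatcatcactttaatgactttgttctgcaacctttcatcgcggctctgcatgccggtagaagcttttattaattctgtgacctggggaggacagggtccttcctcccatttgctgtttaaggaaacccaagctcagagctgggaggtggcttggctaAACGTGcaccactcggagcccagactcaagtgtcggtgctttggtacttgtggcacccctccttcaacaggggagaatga
FBXW11: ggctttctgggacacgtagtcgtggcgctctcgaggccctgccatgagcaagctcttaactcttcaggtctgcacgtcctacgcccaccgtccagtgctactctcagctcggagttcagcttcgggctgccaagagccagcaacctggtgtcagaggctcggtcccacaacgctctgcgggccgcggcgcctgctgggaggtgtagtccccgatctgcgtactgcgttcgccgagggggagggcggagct
CSNK2A1: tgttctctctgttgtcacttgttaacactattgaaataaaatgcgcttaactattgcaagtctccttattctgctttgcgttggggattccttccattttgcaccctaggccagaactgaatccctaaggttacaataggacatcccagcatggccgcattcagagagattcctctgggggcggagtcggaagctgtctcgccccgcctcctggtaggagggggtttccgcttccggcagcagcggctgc
Of these windows, that of *CSNK1E* held the E′-box once, beginning 80 bases before the start and read on the opposite strand, and the other two held neither motif. The second *CSNK1E* window and that of *GSK3B* held neither. Among 35116 promoter windows of the same length, 6.34% held the E-box and 4.55% the E′-box. The windows had a GC content of 50.8% for this *CSNK1E* start, 64.8% for *FBXW11* and 52% for *CSNK2A1*. None of the BMAL1 or CLOCK peaks above lay in these windows. *CSNK1D* and *BTRC* were not matched in the promoter table.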

How the data were processed

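RNA-seq of 24 libraries and ChIP-seq of 10 libraries were used. The authors deposited FPKM per locus of an hg38 annotation, and the processing notes name TopHat, Bowtie and Cufflinks, without versions. RNA was extracted in triplicate, and pooling is not given in the sources used here. The deposited ChIP-seq signal is HOMER tags in 1000 bp scaled to 10000000 tags, and the deposited peak list gives a HOMER score. Distances to start sites are from the deposited HOMER annotation. No per-sample column was left out (0).

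The members and gene lists were chosen with earlier results of these data known. Groups and hours came from the labels. A pseudocount of 1 was added before log2, and loci with a mean FPKM of at least 1 were tested. Trends were fitted with limma 3.58.1 (trend = TRUE) in R 4.3.3 over all of these, with Benjamini-Hochberg adjustment and calls at 0.05. The umbrella test stood in for RAIN, which was not run. Other values came from Python 3.11.15, NumPy 2.4.6 and pandas 2.3.3, and plots from matplotlib 3.10.9. Tests across loci were tested on simulated data. FPKM gave no read totals, so no counting interval was computed. Named genes were the members, list genes called in a test or shifted at all 12 time points, *ARNTL*, *NR1D1* and the 3 loci most alike to each member. *CUL1*, *FBXL21*, *USP2*, *CSNK1G3* and the *CSNK1A1* level were named outside this rule, after values were seen. One listed gene is not reported here by name. Alternatives covered pseudocount, filter, scaling, model, threshold and each time point left out.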

Additional observations from a re-analysis of the deposited data

How the results depend on the processing

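With 1 library per time point and condition, the values hold no variation between experiments, FPKM gave no read totals, and low tag counts limit the ChIP-seq ratios. The paralog ratios were paired by time point. Levels were described as ratios at matched time points but not tested between conditions, because the control and 6AN tables were normalized separately. Trends were fitted within each condition. Replicate numbers only follow the order of the samples and were not used for pairing. The numbers of members called rhythmic and of members higher or lower in 6AN at all time points stayed within 1.5 times under every alternative. The same held for members at their rank in the order of levels. All 4 paralog ratios stayed lower in 6AN and past the threshold. Some alternatives could not have changed these counts. A pseudocount does not alter which condition is higher, and the filter does not alter an unadjusted umbrella p. Leaving out 1 time point cannot lower a count of members shifted at all time points. Over fits that each left out 1 time point, the ratio differences ranged from -0.19 to -0.16 for *CSNK1D* to *CSNK1E*, -0.24 to -0.21 for *BTRC* to *FBXW11*, -0.75 to -0.70 for *CSNK2A1* to *CSNK2A2* and -0.22 to -0.18 for *GSK3B* to *GSK3A*.

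The number of members with a trend depended on the model. With the second 24 hr set against the first at matched hours, it was 0 in control (in place of 1) and 1 in 6AN (in place of 2), and without 1 time point it was 1 to 2 in 6AN, with 1 when CT44 was left out. The cause was not tested. Slopes of members that were not called changed sign. That of *BTRC* was -0.0579 to 0.0457 in control and -0.0643 to 0.0345 in 6AN when 1 time point was left out and 0.0031 in 6AN in the comparison at matched hours. Those in 6AN were -0.0354 to 0.0046 for *CSNK1D* and -0.0435 to 0.0011 for *CSNK1E*. Without a filter on low values, 8.43% of loci were higher and 13.4% lower in 6AN at all 12 time points, since more loci at or near 0 entered. In control 155 expressed loci were listed at 0 in all 12 libraries, and 120 in 6AN. Leaving these out, an alternative chosen after seeing the data, gave 13.3%, 20.8% and, for groups that did not overlap, 6.01%. With each time point centred on its median log2 ratio, the ratios of the 3 higher members were 0.21, 0.38 and 0.27 for *CSNK1D*, *CSNK1E* and *FBXW11*.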
